A study of Callithrix jacchus with 20 samples.

Results

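The Eph receptors, their ephrin ligands, the semaphorins, and the plexin and neuropilin receptors of semaphorins are the guidance molecules through which neighbouring cells repel, attract or sort from each other, and are together termed guidance genes here. Their members were chosen by gene symbol alone: EPHA and EPHB, EFNA and EFNB, SEMA classes 3 to 7, PLXNA to PLXND, and NRP1 and NRP2. The rule found 52 genes among the 25102 genes counted, namely 14 Eph receptors, 8 ephrins, 20 semaphorins, 8 plexins and 2 neuropilins. PLXND1 was not analysed here. The samples were 20 libraries of 1 line of common marmoset (Callithrix jacchus) induced pluripotent stem cells, DPZ_cjiPSC2, in 10 conditions of 2 biological replicates each. The first 2 conditions were undifferentiated cells (cjiPSCs) grown in TESR or in cjPSCM medium. The study's methods give CHIR, a GSK3 inhibitor, in every induction of precursors of mesendoderm (pre-ME). They give BMP4, LIF, SCF and EGF in the later germ cell induction. From each medium, cjiPSCs were induced into pre-ME with Activin A (pre-ME + ActA) or without it (pre-ME − ActA), which gave 4 further conditions. The last 4 were cells sorted on day 4 of the subsequent germ cell induction, all of them labelled as from cjPSCM: cjPGC-like cells (cjPGCLCs), sorted as double-positive for 2 surface markers, and double-negative somatic cells, each from pre-ME + ActA and from pre-ME − ActA. The labels name the sorting pair as INTa6 and EpCAM or as CXCR4 and EpCAM, the study's methods as INTα6 and CXCR4, and CXCR4, ITGA6 and EPCAM all had higher normalised counts in every cjPGCLC library than in every somatic library. The titles of the day 4 samples write their medium as cjEPSCM and their treatment labels as cjPSCM, and they are taken here as cjPSCM. Day 4 libraries from TESR were not analysed here, and 1 line cannot show how other lines behave.

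Ephrins and Eph receptors are both bound to membranes, so they act only between touching cells, and each side signals into its own cell. Ephrin-A ligands are tethered to the membrane by a lipid anchor and bind mainly EphA receptors; ephrin-B ligands span it and bind mainly EphB receptors. Class 3 semaphorins are secreted and mostly act through a complex of a neuropilin, which binds the ligand, and an A-type plexin, which carries the signal. Semaphorins of classes 4 to 6 span the membrane and bind plexins directly, and SEMA7A is lipid-anchored and binds PLXNC1. In vertebrate embryos both systems steer axons, draw tissue boundaries and shape vessels.

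Values are normalised counts, the deposited counts per gene scaled by the study for library depth and not corrected for gene length, so a gene was compared with itself across conditions and not with another gene. The 20 libraries held between 4784964 and 22067099 counts on genes. Where 2 values are given for a condition they are replicate 1 and replicate 2. Fold changes are log2 values ± standard error (SE) from a single edgeR quasi-likelihood fit to all 20 libraries, with p-values adjusted over all 15797 genes tested; a gene is said to have risen or fallen where the adjusted p was under 0.05, and to have passed both thresholds where the log2 fold change was also above 2 in size. With 2 replicates a condition, these p-values rest on the spread shared by all conditions. In bulk RNA, fewer cells of a type and less RNA per cell cannot be told apart.

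The replicates of cjiPSCs in cjPSCM stood apart. The standard deviation of the log2 difference between the 2 libraries over the guidance genes was 1.22 there and 0.308 to 0.403 in the other 9 conditions, and 15 guidance genes differed by over 1 log2 unit between the 2, against 0 to 2 elsewhere. The summed level of 6 endothelial marker genes, none of them at 0, came to 20324 and 7384 normalised counts in those 2 libraries and to between 326 and 4892 in the other 18; CDH5, a cadherin of vessel walls, stood at 11857 and 3403 in cjPSCM and 671 and 619 in TESR. These libraries enter 3 of the 15 comparisons, and the calls lost without each of them are named beside those results; the part of the endothelial transcripts in them was not tested. In the sorted cells, 4 of 6 germ cell markers, SOX17, TFAP2C, PRDM1 and NANOS3, were higher in both cjPGCLC libraries than in both somatic libraries of the same induction. SOX17, which also marks endoderm, stood at 913 and 1034 in cjPGCLCs + ActA and 2152 and 2096 in cjPGCLCs − ActA, against 143 and 219 and 48.4 and 118 in the matching somatic cells. The other 2 did not follow: DND1 was lower in cjPGCLCs in both inductions, at 17.7 and 17.1 against 19.5 and 20.9 and 20.5 and 18.9 against 20.8 and 23.2, and KIT was lower with ActA and overlapped without it.

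Of the 52 genes, 49 were expressed highly enough to be tested, and each of the 49 rose or fell in at least 1 of the 15 comparisons, as did 89% of all genes tested; 24 (49%) passed both thresholds somewhere, against 25.6% of all genes. The untested 3 were EphA receptors: EPHA6 and EPHA8 reached at most 10 counts in any library, and EPHA10, a receptor whose kinase domain is inactive, at most 3. EPHB4, EFNB2 and SEMA4C drew the most normalised counts among Eph receptors, ephrins and semaphorins, a total that grows with gene length and does not rank their expression. EPHB4 is the receptor of EFNB2 in the pairing that separates veins from arteries. EPHB4 had its lowest condition mean, 1235, in pre-ME − ActA from cjPSCM and its highest, 3301, in cjiPSCs in cjPSCM, where the replicates read 3976 and 2627. EFNB2 ranged from 1350 in pre-ME − ActA from TESR to 4053 in cjPGCLCs + ActA. SEMA4C, a ligand of PLXNB2, ranged from 2345 to 4422.

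The spread across conditions differed widely between members. SEMA4B, a transmembrane semaphorin, varied least, by a ratio of 1.35 between its highest and lowest condition means (502 to 680), followed among the plexins by PLXNB1, the SEMA4D receptor (1.70), and PLXNA3 (1.85). EPHB2 varied 21.6-fold, EPHB6 24.2-fold, PLXNC1 23.6-fold, SEMA3C 19.2-fold, NRP1 19.4-fold and SEMA6D 18.4-fold. SEMA6B varied 37.7-fold, between 4.64 in somatic cells − ActA, which lies within the range of the limit of 3 counts across libraries (1.40 to 6.92 normalised counts), and 175 in cjiPSCs in cjPSCM. EPHA1 was at 172 and 149 in cjiPSCs in TESR and 0 and 1.55 in somatic cells − ActA, below that limit.

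**Figure D1:**
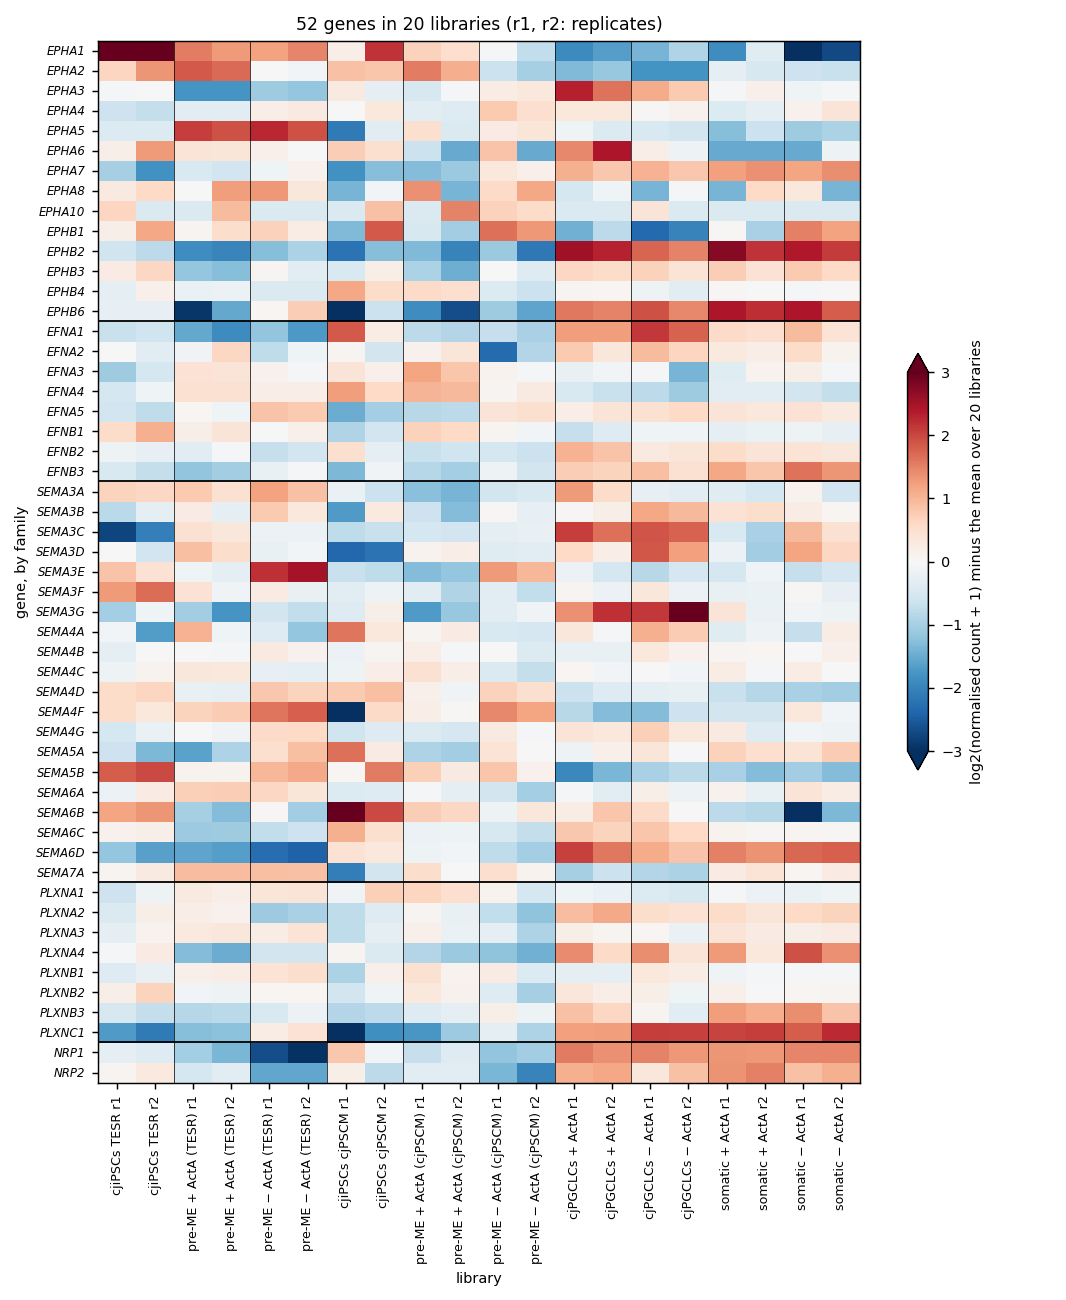
Heat map of log2(normalised count + 1), each gene centred on its mean over the 20 libraries, for the 52 guidance genes (rows, by family) and 20 libraries (columns, by condition and replicate); colours saturate at 3 log2 units either way. Most day 4 columns are red for EPHB2, EPHB6, PLXNC1, NRP1 and NRP2, and the 2 columns of cjiPSCs in cjPSCM differ from each other in many rows.

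The first comparison asked how the culture medium changed the undifferentiated cells. In cjPSCM, 13 guidance genes rose and 11 fell relative to TESR, 49% of the 49, where 36.2% of all genes did so, 18.1% upwards and 18.1% downwards. Only SEMA5A and SEMA3D passed both thresholds (4.08%, against 9.18% of all genes). SEMA5A, a semaphorin with thrombospondin repeats, stood at 343 and 207 in TESR and 1675 and 634 in cjPSCM, a log2 fold change of 2.03 ± 0.36 (adjusted p = 0.000336). All SEMA5A values in cjPSCM exceeded both in TESR, but the cjPSCM replicates were themselves far apart, and the log2 fold change was 1.13 without cjPSCM replicate 1 and 2.56 without replicate 2. SEMA3D, a secreted semaphorin, moved the other way, from 37.5 and 25.3 to 6.59 and 7.41, with a log2 fold change of −2.24 ± 0.44 (adjusted p = 0.000734) and an adjusted p of 0.0513 when only these 4 libraries were fitted.

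Ligands and receptors moved in both directions between the media. Of the ephrins, EFNA1 (1.90), EFNA4 (1.29) and EFNA3 (1.11), all lipid-anchored, rose on the log2 scale, whereas the transmembrane EFNB1 (−1.58) and the lipid-anchored EFNA5 (−0.61) fell. EFNB1, the ligand whose loss causes craniofrontonasal syndrome, was at 2659 and 3833 in TESR and 973 and 1227 in cjPSCM. Among the Eph receptors, EPHB4 (0.92) and EPHA4 (0.81) rose while EPHB2 (−1.09) and EPHA1 (−1.93) fell. The secreted class 3 semaphorins fell in 4 of 7 cases, SEMA3A, SEMA3D, SEMA3E and SEMA3F, and only SEMA3C rose, from 74.4 and 122 to 301 and 320.2 (1.70 ± 0.23). Of class 6, which binds A-type plexins directly, SEMA6B (1.52), SEMA6C (0.63) and SEMA6D (1.71) rose. SEMA6B read 248 and 102 in cjPSCM and 58.4 and 64.03 in TESR. NRP1 and PLXNA1 rose by 0.74 and 0.72. Without cjPSCM replicate 1, 7 of the 24 calls were lost, those of EFNA3, EPHB2, NRP1, SEMA4A, SEMA5B, SEMA6B and SEMA6C, and without replicate 2 that of PLXNA1. EFNA1, with 422 and 136 in cjPSCM, kept its call, with log2 fold changes of 0.82 without replicate 1 and 2.48 without replicate 2. EPHA1, with 17.9 and 72.6, did so at −1.19 and −3.17. The log2 fold change moved by over 1.5 times for 13 of the 24. The number past both thresholds was 10 without cjPSCM replicate 2 and 1 without replicate 1, and with the 4 libraries alone 9 members rose or fell.

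**Figure D2:**
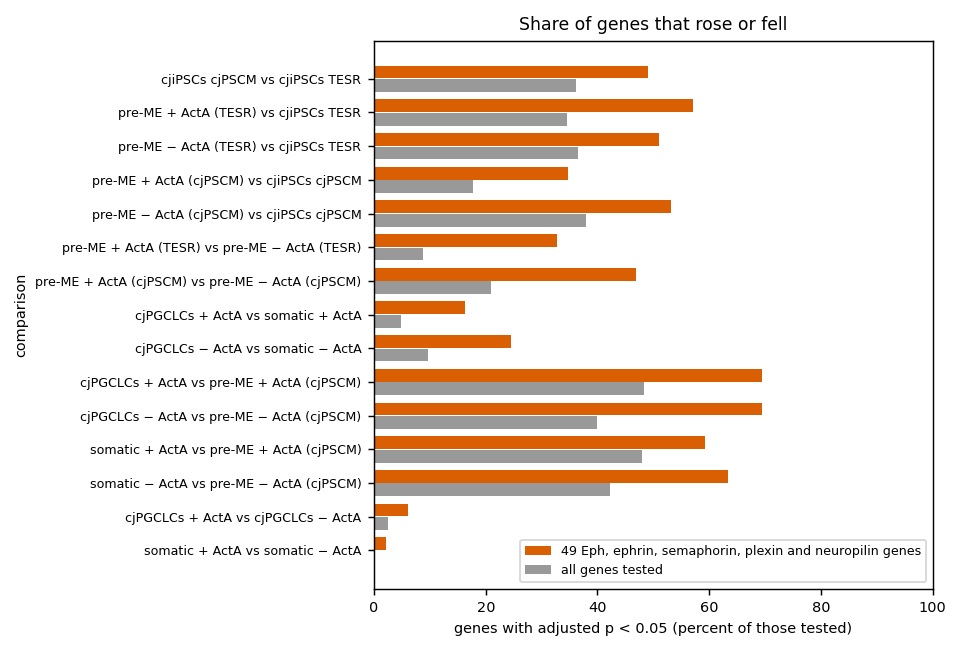
Share of genes with an adjusted p under 0.05 (horizontal axis, percent of genes tested) in each of 15 comparisons (vertical axis), for the 49 guidance genes tested (orange) and all 15797 genes tested (grey). The orange bar is the longer in each comparison, from 2.04% against 0.0253% (somatic cells + ActA against − ActA) to 69.4% against 48.4% (cjPGCLCs + ActA against pre-ME + ActA). The lowest pair rests on 1 guidance gene, which is among the 4 genes called of all 15797. Comparisons that share libraries are not independent.

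Induction of pre-ME from TESR cultures was measured with and without ActA, and both comparisons share the cjiPSC libraries as control. With ActA, 12 guidance genes rose and 16 fell (57.1%; 34.5% of all genes did so, 17.3% upwards and 17.1% downwards), of which 3 passed both thresholds (6.12%, background 6.96%); without it, 14 rose and 11 fell (51%; 36.6% of all genes did so, 17.4% upwards and 19.2% downwards), with 4 past both (8.16%, background 7.86%). SEMA3C rose from 74.4 and 122 in cjiPSCs to 696 and 648 in pre-ME + ActA (2.85 ± 0.23) and to 450.4 and 452 in pre-ME − ActA (2.28 ± 0.23). EPHA5, an EphA receptor best known from the brain, rose from 29.7 and 29.8 to 171 and 152 (2.44 ± 0.36) and to 195 and 152 (2.55 ± 0.36). For both genes every pre-ME library lay above every cjiPSC library. SEMA6B fell in pre-ME + ActA, from 58.4 and 64.03 to 12.04 and 9.55 (−2.48 ± 0.50), with 25.8 and 11.7 in pre-ME − ActA.

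NRP1, the neuropilin that binds SEMA3A and also VEGF-A, stood at 1148 and 1059 in cjiPSCs, 678 and 532 in pre-ME + ActA and 217 and 176 in pre-ME − ActA. It fell in both (−0.86 ± 0.22 and −2.48 ± 0.23). PLXNC1, the SEMA7A receptor, rose without ActA from 18.2 and 13.4 to 71.3 and 83.3 (2.23 ± 0.32), while its values with ActA, 24.6 and 25.5, did not pass the test (adjusted p = 0.185). SEMA3E moved in opposite directions, falling with ActA (−0.88 ± 0.19) and rising without (1.68 ± 0.19). EPHA1, the founding member of the Eph family, fell in both, from 172 and 149 to 46.5 and 38.7 and 37.3 and 44.4. The number of genes that rose or fell with ActA was 18 without pre-ME + ActA replicate 1.

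From cjPSCM cultures, 6 guidance genes rose and 11 fell with ActA (34.7%; 17.7% of all genes did so, 7.42% upwards and 10.3% downwards), 4 of them past both thresholds (8.16%, background 3.06%); without ActA, 12 rose and 14 fell (53.1%; 38% of all genes did so, 17.9% upwards and 20.1% downwards), 4 past both (8.16%, background 5.27%). Both comparisons share the cjiPSC libraries in cjPSCM whose replicates differ. SEMA3D rose from 6.59 and 7.41 to 40.9 and 43.5 with ActA (2.60 ± 0.43) and to 29.5 and 29.7 without (2.11 ± 0.44). SEMA6B fell from 248 and 102 to 42.6 and 39.3 (−2.09 ± 0.46) and 22.4 and 31.7 (−2.70 ± 0.47). EFNA1, the main ligand of EPHA2, fell from 422 and 136 to 67.6 and 63.2 (−2.10 ± 0.38) and 71.9 and 59.4 (−2.07 ± 0.37). In all 3 genes the pre-ME libraries lay outside the range of the cjiPSC libraries. SEMA5A fell past both thresholds with ActA (−2.10 ± 0.37), and PLXNC1 rose past both without (2.09 ± 0.39).

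These values depended on the cjiPSC library used. Without cjiPSC replicate 1 the log2 fold change with ActA was −1.02 for EFNA1, −1.21 for SEMA5A and −1.28 for SEMA6B, the last with an adjusted p of 0.0952, while without replicate 2 they were −2.68, −2.64 and −2.59; SEMA3D changed little, 2.52 and 2.65. Without ActA, EFNA1 stood at −0.99 and −2.65, PLXNC1 at 1.42 and 2.90 and SEMA6B at −1.89 and −3.20. The calls lost without cjiPSC replicate 1 were 8 of 17 with ActA (EFNA5, EFNB2, EPHA5, NRP1, PLXNB2, SEMA3A, SEMA3G and SEMA6B) and 8 of 26 without it (EFNA2, EFNA4, EFNB2, EPHA4, EPHA5, PLXNB3, SEMA4A and SEMA4G). Without replicate 2 they were EPHA4 and SEMA3G with ActA, and EPHA1 without it. The number past both thresholds was 2 and 7 with ActA, and 2 and 11 without it, leaving out replicate 1 and replicate 2 in turn. With ActA, the 17 genes became 7 without pre-ME replicate 1, 11 without pre-ME replicate 2, and 1 when only the 4 libraries were fitted. EPHA5, which rose in both inductions from TESR, also passed the test in pre-ME + ActA from cjPSCM (1.28 ± 0.43), although its cjiPSC values, 8.48 and 31.1, and its pre-ME values, 55.9 and 29.5, overlapped.

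The inductions from the 2 media use separate libraries, so their gene lists were compared. The matching overlap among all genes tested is not given here, so the overlap is not read as particular to the guidance genes. With ActA, 4 genes rose in both (33.3% of the 12 from TESR and 66.7% of the 6 from cjPSCM), EFNA5, EPHA5, SEMA3D and SEMA7A, and 6 fell in both, EFNA1, EPHB3, NRP1, SEMA4D, SEMA6B and SEMA6C. EFNB1, EPHA4 and PLXNB2 moved in opposite directions. EFNB1 fell from 2659 and 3833 to 2054 and 2378 from TESR (−0.53 ± 0.16) and rose from 973 and 1227 to 2941 and 2734 from cjPSCM (1.39 ± 0.16). Without ActA, 7 genes rose in both (50% and 58.3%), among them PLXNC1 and SEMA3E, and 7 fell in both, among them both neuropilins, EPHA1 and EPHA2; EFNA4 and EFNB1 moved in opposite directions.

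The effect of ActA itself was measured between pre-ME + ActA and pre-ME − ActA. In pre-ME from TESR, 6 guidance genes were higher and 10 lower with ActA, 32.7% of those tested where 8.84% of all genes did so, 5.63% upwards and 3.2% downwards. From cjPSCM, 13 were higher and 10 lower, 46.9% of those tested where 20.9% of all genes did so, 11.4% upwards and 9.54% downwards. Past both thresholds were 2 genes from TESR (4.08%, background 2%) and 3 from cjPSCM (6.12%, background 2.11%). The median size of the log2 fold change over the guidance genes was 0.579 and 0.722, against 0.214 and 0.374 over all genes tested.

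SEMA3E fell in both. It signals through PLXND1 without needing a neuropilin. It stood at 241 and 213 with ActA and 1198 and 1476 without in pre-ME from TESR (−2.56 ± 0.20, adjusted p = 4.79e-07), and at 105 and 117 and 639.6 and 521 from cjPSCM (−2.41 ± 0.21, adjusted p = 1.35e-06). EPHA2, an Eph receptor of epithelia and pluripotent cells, rose in both, with 2695 and 2439.9 against 755 and 711 from TESR (1.81 ± 0.19) and 2176 and 1614 against 485 and 376 from cjPSCM (2.12 ± 0.19). For both genes the libraries with and without ActA did not overlap in either medium, and the fold change stayed past the test with any 1 library left out. NRP2, the neuropilin that binds SEMA3F, was also higher with ActA, 1221 and 1409 against 603 and 602 and 1425 and 1421 against 683 and 441. PLXNA2, SEMA4C and SEMA6D completed the 5 genes that were higher in both media, which were 83.3% of those higher from TESR and 38.5% of those higher from cjPSCM. The 7 that were lower in both, 70% of each list, were SEMA3E, EFNA5, EPHA4, EPHB3, SEMA4D, SEMA4G and SEMA5A. None moved in opposite directions. How far the 2 lists overlap among all genes tested is not given here.

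Other members passed the test in 1 medium. EPHB6, whose kinase domain is inactive, was lower with ActA in pre-ME from TESR, 11.5 and 31.8 against 97.7 and 158 (−2.55 ± 0.50), though with an adjusted p of 0.0671 without pre-ME + ActA replicate 1; from cjPSCM it stood at 25.03 and 14.04 and 44.2 and 30.7 (adjusted p = 0.297). EPHB1, a receptor of B ephrins, was lower with ActA from cjPSCM, 10.8 and 7.02 against 51.3 and 39.6 (−2.31 ± 0.68), with an adjusted p of 0.142 without pre-ME + ActA replicate 1. NRP1 was higher with ActA from TESR (1.62 ± 0.23) and at 0.56 ± 0.22 from cjPSCM, where it missed the test. EFNA2 was higher from cjPSCM (1.78 ± 0.43). The test of the difference between media found no guidance gene (0 of 49, background 0.399%), with edgeR's smallest adjusted p of 0.0977 for PLXNB2 and 11 genes at an unadjusted p under 0.05; DESeq2 called 4, and edgeR called 10 with no filter on low counts and 12 when only the 8 pre-ME libraries were fitted. How many guidance genes passed this test thus depended on the setting. The share of all genes called in these other fits is not given here. The count from TESR was 10 without any 1 of its 4 libraries, and that from cjPSCM was 11 without pre-ME + ActA replicate 1 or pre-ME − ActA replicate 2 and 14 without pre-ME + ActA replicate 2; without pre-ME + ActA replicate 1, 1 gene passed both thresholds in each medium.

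**Figure D3:**
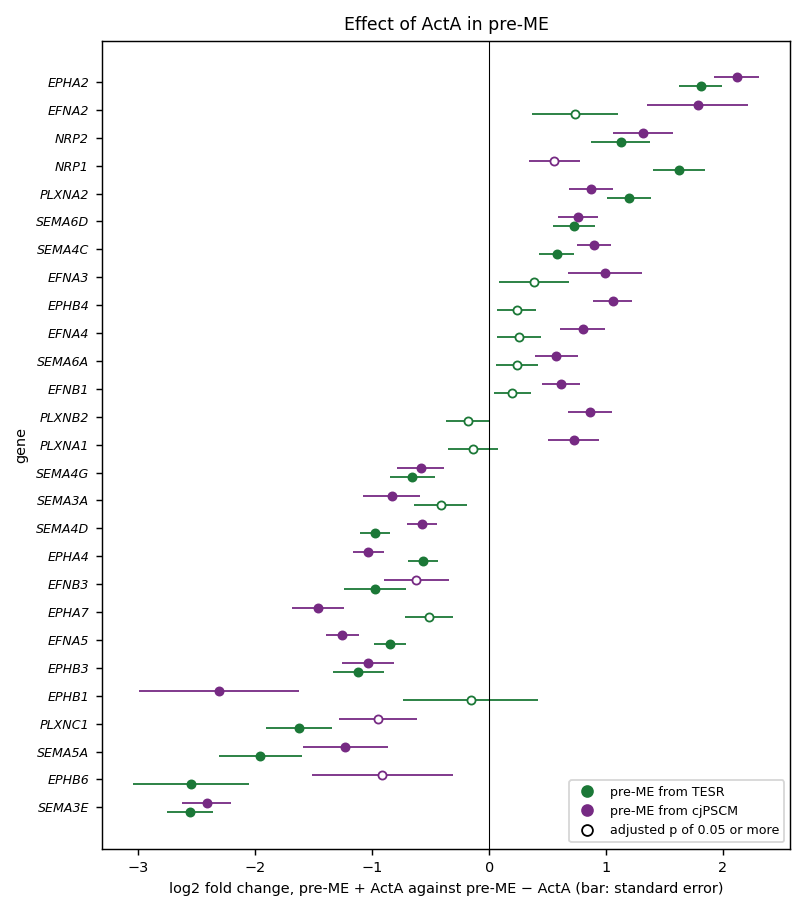
Log2 fold change, pre-ME + ActA against pre-ME − ActA (horizontal axis), with its standard error as a bar, for the 27 guidance genes that passed the test in pre-ME from TESR (green) or cjPSCM (purple); open symbols have an adjusted p of 0.05 or more. EPHA2 lies furthest to the right and SEMA3E at the bottom, near −2.5, in both media.

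Day 4 cells were then compared with the pre-ME they came from. The cjPGCLC and somatic comparisons share the same pre-ME libraries. In cjPGCLCs + ActA, 24 guidance genes rose and 10 fell (69.4%; 48.4% of all genes did so, 25.3% upwards and 23% downwards), and 14 passed both thresholds (28.6%, background 8.36%). In cjPGCLCs − ActA, 25 rose and 9 fell (69.4%; 40% of all genes did so, 21.5% upwards and 18.5% downwards), and 12 passed both (24.5%, background 7.88%). Somatic cells + ActA had 20 risen and 9 fallen (59.2%; 48% of all genes did so, 23.8% upwards and 24.2% downwards), 4 of them past both (8.16%, background 8.3%). Somatic cells − ActA had 23 risen and 8 fallen (63.3%; 42.2% of all genes did so, 20.6% upwards and 21.7% downwards), 9 of them past both (18.4%, background 7.94%). The comparisons with and without ActA use separate libraries, and the overlap of their lists among all genes tested is not given here. In cjPGCLCs 17 of the risen genes were shared (70.8% and 68% of the 2 lists) and 5 of the fallen; in somatic cells 14 (70% and 60.9%) and 4.

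Of the Eph receptors, 3 B-type members rose in all 4 day 4 populations. EPHB2, which holds cells within tissue compartments by repulsion from ephrin-B, stood at 61.7 and 37.9 in pre-ME + ActA and at 910.3 and 776 in cjPGCLCs + ActA and 1043 and 707 in somatic cells + ActA, log2 fold changes of 4.04 ± 0.32 and 4.08 ± 0.32. Without ActA it went from 71.3 and 34.7 to 526 and 441 (3.13 ± 0.31) and 828 and 665 (3.73 ± 0.31). EPHB6 followed the same course, from 25.03 and 14.04 to 282 and 263 and 509.9 and 437 with ActA (3.73 ± 0.55 and 4.51 ± 0.55), and from 44.2 and 30.7 to 357 and 255 and 509.7 and 331 without (2.998 ± 0.49 and 3.42 ± 0.49). No day 4 library overlapped a pre-ME library for either receptor. EPHB3, an intestinal partner of EPHB2, rose by 1.77 and 1.77 with ActA and by 0.71 and 0.83 without.

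EPHB1 took the opposite course where ActA had been left out. It was at 51.3 and 39.6 in pre-ME − ActA and 46.1 and 37.1 in somatic cells − ActA but 2.28 and 3.15 in cjPGCLCs − ActA, where both libraries held no more than 3 counts. Set against that limit, EPHB1 was at least 13.0-fold lower in cjPGCLCs than in pre-ME (adjusted p = 0.00113).

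The EphA receptors were split. EPHA7, a receptor of the neural plate, rose in all 4 populations, most in somatic cells + ActA, from 137 and 156 to 786 and 871 (2.50 ± 0.23). EPHA3 rose in both cjPGCLC populations, from 143 and 191 to 1010.0 and 619.9 with ActA (2.31 ± 0.23) and from 229.9 and 246 to 429 and 342 without (0.69 ± 0.22); in somatic cells its values were 193 and 221 and 179.9 and 190.3, and the change missed the test. EPHA2 fell from 2176 and 1614 to 303 and 344 in cjPGCLCs + ActA (−2.55 ± 0.20) and to 618 and 539.7 in somatic cells + ActA (−1.72 ± 0.19). Starting from the lower level in pre-ME − ActA, 485 and 376, EPHA2 reached 218 and 216 in cjPGCLCs (−1.005 ± 0.20), and in somatic cells it stood at 487 and 477 (0.13 ± 0.20, adjusted p = 0.634). EPHA1 fell from 25.9 and 22.5 to 3.38 and 4.27 in cjPGCLCs + ActA (−2.67 ± 0.69), with an adjusted p of 0.0589 without cjPGCLC replicate 1. In somatic cells − ActA both EPHA1 libraries held no more than 3 counts, which makes it at least 2.05-fold lower than in pre-ME − ActA (adjusted p = 0.0192, and 0.103 without somatic replicate 1).

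Among the ephrins, EFNA1, EFNB2 and EFNB3 rose in all 4 populations. EFNA1 went from 67.6 and 63.2 in pre-ME + ActA to 279 and 279 in cjPGCLCs (2.09 ± 0.38) and 175 and 165 in somatic cells (1.37 ± 0.39), and from 71.9 and 59.4 in pre-ME − ActA to 510.3 and 399 (2.77 ± 0.37) and 228 and 156 (1.49 ± 0.38). EFNA1 thus rose in both cjPGCLC populations and in somatic cells + ActA, in each of which the level of its receptor EPHA2 fell. In somatic cells − ActA EFNA1 rose while EPHA2 did not pass the test. EFNB2 reached 4304 and 3801 in cjPGCLCs + ActA, against 1319 and 1386 in pre-ME + ActA (1.59 ± 0.19). EFNA2 rose past both thresholds in cjPGCLCs − ActA, from 9.43 and 26.7 to 97.97 and 78.8 (2.38 ± 0.42), with low pre-ME values, and its log2 fold change was 1.71 without pre-ME replicate 1 and 3.22 without replicate 2. EFNA4 fell in all 4 populations, by 0.85 to 1.55 on the log2 scale.

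Both neuropilins rose in all 4 populations. NRP1 stood at 853 and 1058 in pre-ME + ActA and 605 and 675 in pre-ME − ActA, and at 4089 and 3555 and 3488 and 3423 in cjPGCLCs and somatic cells + ActA and 3880.0 and 3403 and 3791 and 3817 in those − ActA. Every day 4 library exceeded every other library of the study for this gene. The log2 fold changes were 2.01 ± 0.22 and 1.85 ± 0.22 with ActA and 2.50 ± 0.23 and 2.54 ± 0.23 without. NRP2 rose by 1.43 ± 0.25 and 1.74 ± 0.26 with ActA, and by 2.28 ± 0.26 and 2.60 ± 0.27 without, from a pre-ME level of 1425 and 1421 and 683 and 441. KDR, the VEGF receptor with which neuropilins also associate, is among the partners described below.

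Of the plexins, PLXNC1, PLXNA2 and PLXNA4 rose in all 4 populations. PLXNC1 went from 17.5 and 28.1 to 145 and 146 in cjPGCLCs + ActA (2.73 ± 0.32) and 251 and 259 in somatic cells + ActA (3.53 ± 0.32), and from 50.7 and 31.7 to 263 and 255 (2.61 ± 0.28) and 217 and 294 (2.58 ± 0.28) without ActA. Its ligand SEMA7A fell in both cjPGCLC populations (−1.12 ± 0.30 and −1.25 ± 0.30) and was at 0.03 ± 0.29 and −0.19 ± 0.29 in somatic cells, where neither change passed the test. PLXNA4, which transmits SEMA3A and SEMA6 signals, rose most in somatic cells − ActA, from 11.8 and 9.91 to 111 and 75.8 (3.03 ± 0.44). PLXNA1, a co-receptor of neuropilins, fell in cjPGCLCs + ActA (−0.73) and somatic cells + ActA (−0.68), where the pre-ME level was highest.

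Of the 20 semaphorins, 8 rose and 3 fell in cjPGCLCs + ActA and 10 and 5 in cjPGCLCs − ActA, and 6 and 3, and 6 and 4, in the somatic cells. SEMA3C, which acts on outflow tract and neural crest cells through neuropilins, rose in cjPGCLCs + ActA from 355 and 339.9 to 2162 and 1605 (2.44 ± 0.21) and was at 370.1 and 261 in somatic cells + ActA (adjusted p = 0.577). Without ActA it rose in both, from 422 and 438 to 1879 and 1735 (2.06 ± 0.20) and 1001 and 695 (0.94 ± 0.20). SEMA3G, a secreted semaphorin that binds NRP2, rose in cjPGCLCs from 23.4 and 35.1 to 205 and 363 with ActA (3.31 ± 0.42) and from 61.9 and 73.3 to 345 and 684 without (2.91 ± 0.38). SEMA3A, the classical axon repellent, rose in cjPGCLCs + ActA from 198 and 178 to 1151 and 688 (2.29 ± 0.25). SEMA6D, a ligand of PLXNA1, rose in all 4, most in somatic cells − ActA, from 722 and 605 to 4024 and 4290.1 (2.62 ± 0.18).

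SEMA5B and SEMA4D fell in all 4 populations. SEMA5B, which carries thrombospondin repeats like SEMA5A, fell most in cjPGCLCs + ActA, from 567 and 414 to 90.4 and 132 (−2.17 ± 0.37). SEMA4F fell past both thresholds in cjPGCLCs − ActA, from 186 and 158 to 27.3 and 44.1 (−2.34 ± 0.64), with an adjusted p of 0.104 without cjPGCLC replicate 1. SEMA6B fell in somatic cells − ActA, from 22.4 and 31.7 to 0 and 9.28 (−2.29 ± 0.76), where the somatic replicates disagree and the adjusted p was 0.144 without replicate 1. SEMA3E rose with ActA and fell without it, in both fates: it stood at 105 and 117 and 639.6 and 521 in the 2 kinds of pre-ME and between 147 and 242 in all 8 day 4 libraries. EPHA4 in cjPGCLCs and EPHB4 in somatic cells likewise passed the test in opposite directions with and without ActA.

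The number past both thresholds was 8 in cjPGCLCs + ActA without cjPGCLC replicate 1, and 7 in somatic cells + ActA without pre-ME replicate 1 or without somatic replicate 2. Amnion-like markers, of which none was at 0 in day 4 cells, summed to 7050 to 12749 normalised counts in day 4 libraries and 932 to 1347 in the cjPSCM pre-ME libraries, where VTCN1 was at 0 with ActA and GABRP without. Of 7 primitive streak and mesoderm markers only HAND1 was high in day 4 cells (2135 to 4845), the other 6 reaching at most 22.8 there, with TBXT at 0 in somatic cells. The 6 endoderm markers summed to 865 to 3985 in day 4 libraries and 235 to 333 in the cjPSCM pre-ME libraries. Among them GATA4 stood at 690.2 to 3322 in the first and 11.2 to 28.7 in the second. HHEX went the other way, at 62.3 to 170 in day 4 libraries and 213 to 316 in the cjPSCM pre-ME libraries. The part of these markers in the changes of the guidance genes was not tested.

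**Figure D4:**
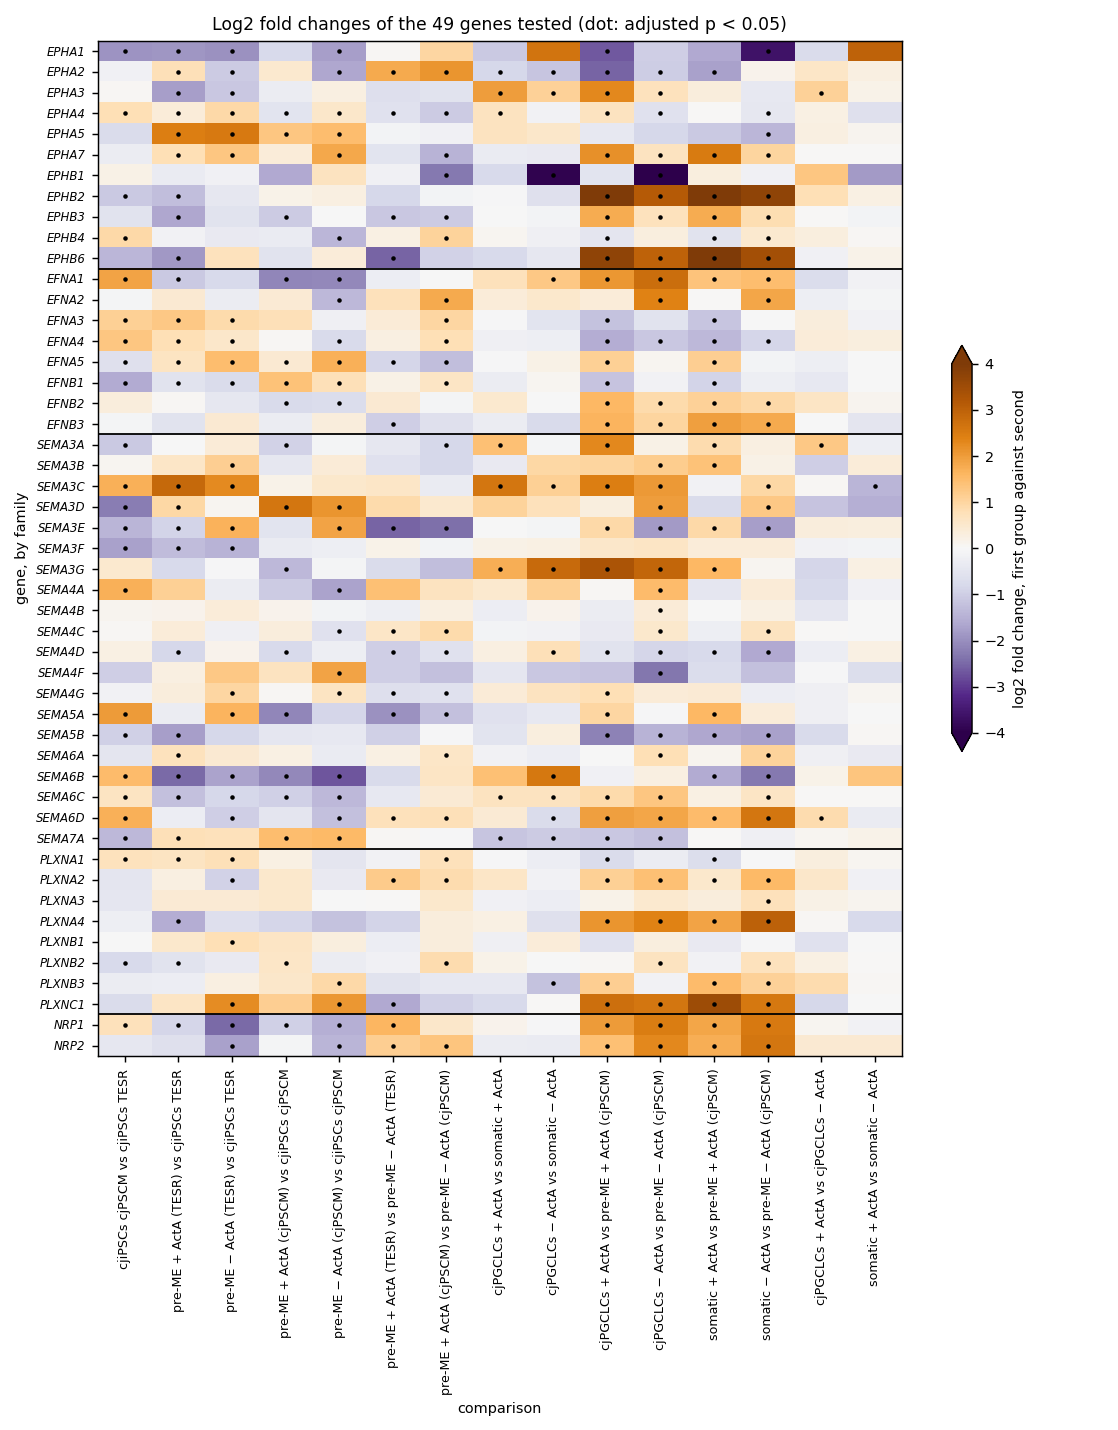
Log2 fold change (colour, saturating at 4 either way) of the 49 tested guidance genes (rows, by family) in 15 comparisons (columns); a black dot marks an adjusted p under 0.05. The 4 columns of day 4 cells against pre-ME are orange and dotted throughout for EPHB2, EPHB3, EPHB6, EPHA7, EFNA1, EFNB2, EFNB3, SEMA6D, PLXNA2, PLXNA4, PLXNC1, NRP1 and NRP2.

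The direct comparison of cjPGCLCs with somatic cells asked which guidance genes separate the sorted fates. After pre-ME + ActA, 6 were higher and 2 lower in cjPGCLCs (16.3%; 4.84% of all genes did so, 3.68% upwards and 1.16% downwards). After pre-ME − ActA, 7 were higher and 5 lower (24.5%; 9.63% of all genes did so, 6.67% upwards and 2.96% downwards). In the 2 comparisons 1 and 3 passed both thresholds (2.04% and 6.12%, background 1.58% and 2.84%). The 2 comparisons use separate libraries, and the overlap of their lists among all genes tested is not given here. EPHA3, SEMA3C, SEMA3G and SEMA6C were higher in both (66.7% of the first list and 57.1% of the second), EPHA2 and SEMA7A were lower in both, and none was opposite. Neither neuropilin passed the test in either.

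SEMA3C stood at 2162 and 1605 in cjPGCLCs + ActA against 370.1 and 261 in somatic cells + ActA (2.59 ± 0.21, adjusted p = 2.2e-06), and at 1879 and 1735 against 1001 and 695 without ActA (1.12 ± 0.20). SEMA3G stood at 205 and 363 against 103 and 68.6 (1.73 ± 0.39) and at 345 and 684 against 73.8 and 71.2 (2.83 ± 0.40). Both are secreted, and for both genes the lowest cjPGCLC library exceeded the highest somatic library within each induction. EPHA3 was higher by 1.99 ± 0.23 with ActA and 1.08 ± 0.24 without, and SEMA6C by 0.68 in each. EPHA2 was lower in cjPGCLCs, 303 and 344 against 618 and 539.7 with ActA (−0.83 ± 0.20) and 218 and 216 against 487 and 477 without (−1.13 ± 0.21). SEMA7A was lower, at −1.15 and −1.06 on the log2 scale.

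Further members passed in 1 of the inductions. With ActA, SEMA3A (1.42 ± 0.24) and EPHA4 (0.67 ± 0.13) were higher in cjPGCLCs. Without ActA, EFNA1 was higher, 510.3 and 399 against 228 and 156 (1.28 ± 0.36), as were SEMA4D (0.77 ± 0.14) and SEMA6B, 37.97 and 25.2 against 0 and 9.28 (2.57 ± 0.75), the last with an adjusted p of 0.257 without cjPGCLC replicate 1. SEMA6D (−0.75 ± 0.17) and PLXNB3, a SEMA5A receptor (−1.21 ± 0.27), were lower. EPHB1 was at least 11.9-fold lower in cjPGCLCs − ActA than in somatic cells − ActA (adjusted p = 0.0097, and 0.141 without cjPGCLC replicate 1). The 6 endothelial markers, none at 0, summed to 1632 and 1628 in cjPGCLCs − ActA and 3524 and 4892 in somatic cells − ActA, and to 3108 and 2746 against 3881 and 3886 with ActA. The 6 endoderm markers summed to 2152 and 1251 in cjPGCLCs + ActA against 1385 and 865 in somatic cells + ActA, and to 3985 and 2238 against 2230.0 and 1956 without ActA. Among them FOXA2 stood at 192 and 83.9 in cjPGCLCs + ActA and 518 and 356 in cjPGCLCs − ActA, against 0 and 0 and 4.61 and 0 in the somatic cells, while CER1 was at 0 in cjPGCLCs + ActA and AFP and FOXA1 in somatic cells − ActA. The part of these markers in the differences was not tested.

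The test of whether the difference between fates depended on ActA called no guidance gene in edgeR (0 of 49, background 0.0633%), with 12 at an unadjusted p under 0.05; DESeq2 called 4, and edgeR called 5 with no filter on low counts, 6 when only the 8 day 4 libraries were fitted and 2 with the replicate block. SEMA3C came nearest in the edgeR fit to all libraries, with a difference of log2 fold changes of 1.48 ± 0.29 (adjusted p = 0.0673). SEMA6D followed at 1.18 ± 0.24 (adjusted p = 0.0727). For the other fits of this test, the share of all genes called is not given here. The count with ActA was 3 without any of cjPGCLC replicate 1, somatic replicate 1 and somatic replicate 2, 5 without cjPGCLC replicate 2, and 14 with the 4 libraries alone. Those past both thresholds became 2 without cjPGCLC replicate 1, cjPGCLC replicate 2 or somatic replicate 2. Without ActA the count was 5 without somatic replicate 1 and 6 without somatic replicate 2 or cjPGCLC replicate 1, and 1 passed both thresholds without somatic replicate 1 or without cjPGCLC replicate 1.

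**Figure D5:**
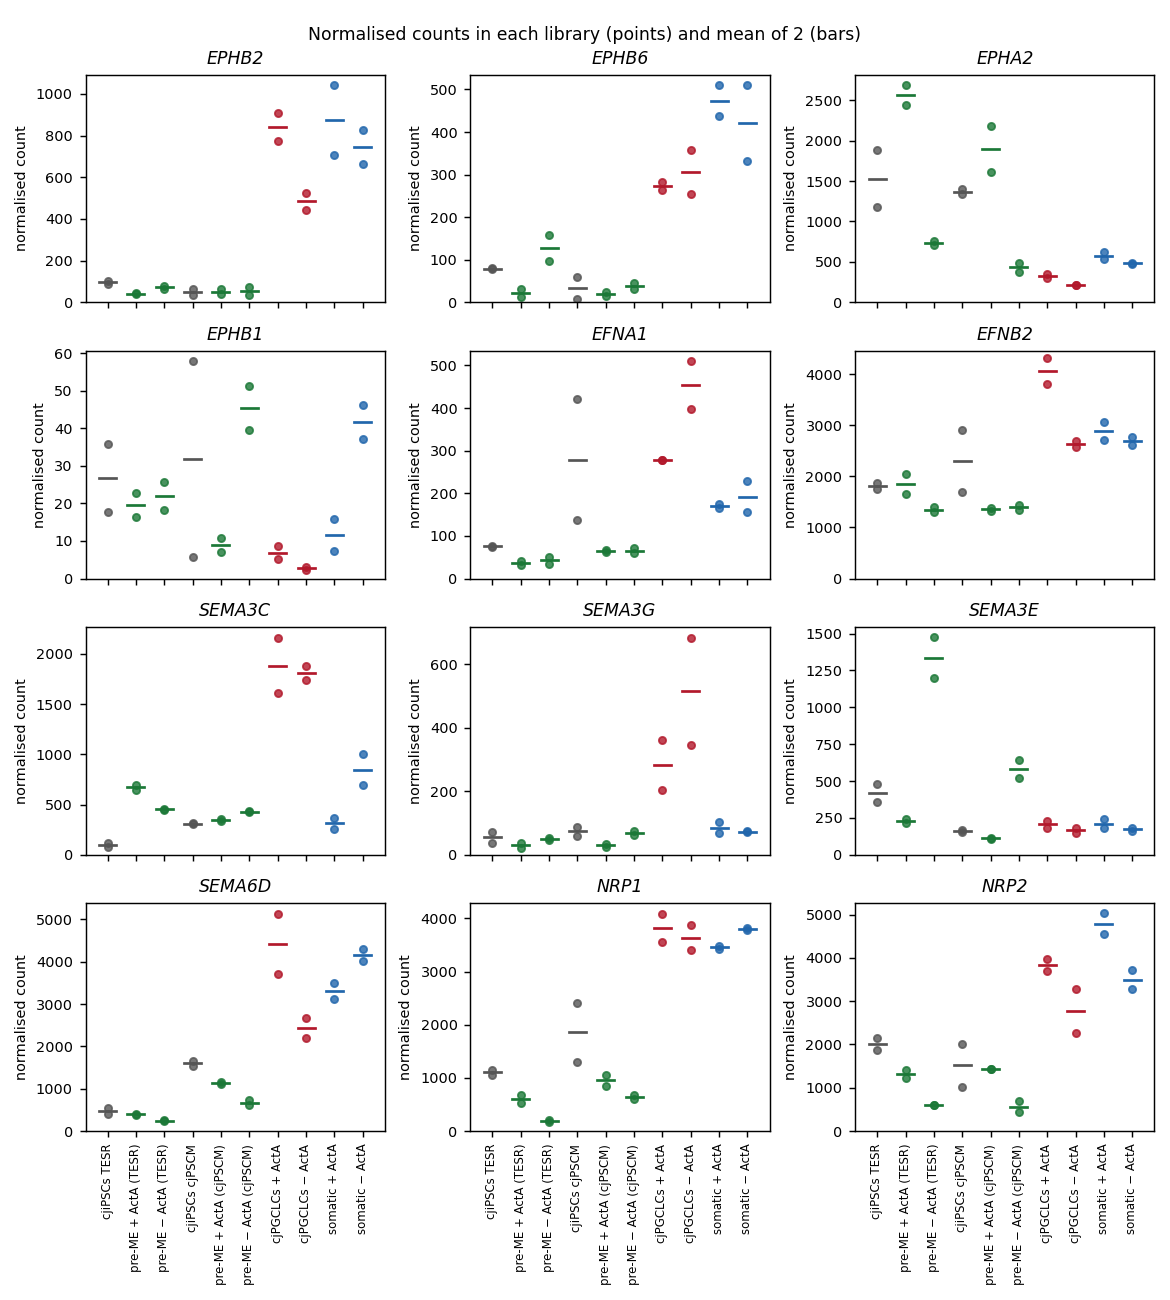
Normalised counts (vertical axes, linear from 0, own scale per gene) of 12 guidance genes in the 2 libraries of each of 10 conditions (horizontal axis); points are libraries and bars their mean. EPHB2, EPHB6, NRP1 and NRP2 are high in all day 4 conditions, SEMA3C and SEMA3G are higher in cjPGCLCs (red) than in somatic cells (blue), and SEMA3E peaks in pre-ME − ActA from both media.

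Whether ActA in pre-ME left a trace at day 4 was tested within each fate. In cjPGCLCs, 3 guidance genes were higher after pre-ME + ActA and none lower (6.12%; 2.53% of all genes did so, 1.37% upwards and 1.16% downwards), and none passed both thresholds (background 0.38%). SEMA3A stood at 1151 and 688 against 396 and 369 (1.27 ± 0.24), EPHA3 at 1010.0 and 619.9 against 429 and 342 (1.07 ± 0.22) and SEMA6D at 5133 and 3698 against 2675 and 2208 (0.85 ± 0.17). For each the lower library with ActA lay above the higher one without. In somatic cells 1 gene passed, SEMA3C, lower after pre-ME + ActA at 370.1 and 261 against 1001 and 695 (−1.42 ± 0.21, adjusted p = 0.0347). It made up 2.04% of the guidance genes where 0.0253% of all genes did so, 0.019% upwards and 0.00633% downwards. These shares rest on very few genes: 4 of 15797 passed, 3 of them higher and 1, SEMA3C itself, lower. No guidance gene passed both thresholds (background 0.00633%). SEMA3E and EPHA2, which differed by ActA in pre-ME from both media, had adjusted p-values of 0.575 and 0.183 in cjPGCLCs and 1 and 1 in somatic cells. The 3 calls in cjPGCLCs became 0 without cjPGCLC + ActA replicate 1 or without either cjPGCLC − ActA replicate, and 13 with these 4 libraries alone. SEMA3C in somatic cells was lost without either somatic + ActA replicate or without somatic − ActA replicate 1.

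The genes through which these receptors signal were described from 2 lists of known partners: 24 partners of Ephs and ephrins, such as the adaptors NCK1 and NCK2 and the exchange factors VAV2 and TIAM1, and 33 of semaphorins and plexins, such as the CRMP proteins, MICALs and VEGF receptor, of which 24 and 32 were tested. In cjiPSCs in cjPSCM relative to TESR, 7 Eph partners rose and 5 fell, and 7 semaphorin partners rose and 4 fell, where 18.1% of all genes rose and 18.1% fell. MICAL2, the oxidase that disassembles actin below plexins, rose by 4.14 (4.01 and 4.28 without cjPSCM replicate 1 and 2) and DPYSL3, a CRMP protein, by 2.61 (2.51 and 2.704) on the log2 scale. L1CAM rose by 2.21 (2.14 and 2.33). In pre-ME + ActA from TESR, 2 Eph partners rose and 8 fell, and 5 semaphorin partners rose and 11 fell (17.3% of all genes upwards and 17.1% downwards). From cjPSCM with ActA it was 3 and 9, and 5 and 7 (7.42% and 10.3%). In pre-ME − ActA from TESR, 1 Eph partner rose and 10 fell, and 5 semaphorin partners rose and 15 fell (17.4% and 19.2%). From cjPSCM without ActA it was 2 and 13, and 2 and 16 (17.9% and 20.1%). The VEGF receptor KDR fell in pre-ME − ActA from both media (−3.57 and −3.12, the latter −2.84 and −3.35 without cjiPSC replicate 1 and 2). MICAL2 fell in pre-ME − ActA from cjPSCM (−2.26, and −2.12 and −2.39 without each in turn). NGEF, an Eph partner, fell from TESR with and without ActA (−3.38 and −4.52), from a mean of 43.2 to 4.05 and 1.80. From cjPSCM without ActA, NGEF fell by −2.82 (−2.90 and −2.76). RND3, a semaphorin partner, rose from TESR with and without ActA (2.25 and 2.17). Between pre-ME + ActA and pre-ME − ActA, 0 Eph partners were higher and 1 lower, and 3 semaphorin partners higher and 1 lower, from TESR (5.63% and 3.2% of all genes), and 2 and 1, and 9 and 2, from cjPSCM (11.4% and 9.54%). From cjPSCM, KDR was higher with ActA by 2.50 and NGEF by 2.47, the latter at means of only 9.46 and 1.67.

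At day 4, 6 Eph partners rose and 4 fell in cjPGCLCs + ActA, and 6 semaphorin partners rose and 8 fell (25.3% and 23% of all genes); in cjPGCLCs − ActA it was 8 and 1, and 12 and 6 (21.5% and 18.5%). In somatic cells it was 7 and 5, and 9 and 9, with ActA (23.8% and 24.2%), and 8 and 2, and 12 and 7, without (20.6% and 21.7%). VEGFA, a ligand of both neuropilins, rose by 2.36 and 4.57 in cjPGCLCs with and without ActA and by 1.33 and 2.10 in somatic cells. It was 1.03 and 2.47 higher on the log2 scale in cjPGCLCs than in the somatic cells with and without ActA. MET, a receptor kinase that associates with B-type plexins, fell in cjPGCLCs with and without ActA (−2.56 and −3.11) and in somatic cells (−3.70 and −4.77). MICAL2 fell in cjPGCLCs + ActA (−2.24), somatic cells + ActA (−2.25) and cjPGCLCs − ActA (−1.40), and stood at −0.37 in somatic cells − ActA (adjusted p = 0.218). L1CAM, the SEMA3A co-receptor, fell in cjPGCLCs + ActA (−2.18) and both somatic populations (−2.41 and −2.38), and stood at −0.77 in cjPGCLCs − ActA (adjusted p = 0.0598). KALRN, an exchange factor below EphB2, rose by 2.002 and 1.83 in somatic cells with and without ActA and by 1.14 and 1.19 in cjPGCLCs. RND1, a semaphorin partner, rose past both thresholds in somatic cells + ActA (2.65). NGEF fell past both in cjPGCLCs + ActA (−3.23) and somatic cells + ActA (−2.66), at means of 0.845 and 1.63 against 9.46 in pre-ME + ActA. Between cjPGCLCs and somatic cells 1 Eph partner was higher and 2 lower with ActA, and 0 and 2 without; 3 and 2, and 5 and 3, of the semaphorin partners were (3.68% and 1.16% of all genes with ActA, 6.67% and 2.96% without).

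Overlaps were looked up in a RefSeq annotation of another assembly than the one used for counting. There, 8 guidance genes overlap another counted gene: EFNA1 with SLC50A1, EPHA1 with ZYX, SEMA4G with MRPL43, TWNK and 2 unnamed loci, and EPHA3, NRP1, PLXNA4, PLXNB1 and SEMA3D each with 1 unnamed locus. The sources used here do not state whether reads were counted by strand, so reads of these genes and of their neighbours may not be separated. All 8 genes carry that limit in the results above, and overlaps in the annotation used for counting were not examined.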

How the data were processed

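The authors aligned paired-end reads with STAR 2.7.0a to the marmoset genome and counted them per gene with HTSeq 0.11, per the labels; the annotation release and the strand setting are not given in the sources used here. The deposited tables hold raw counts per gene and a normalised signal, the same counts divided by DESeq2 size factors by the authors. Values printed per library are the latter. Reads in no gene were 10.6% to 23.2% and ambiguous reads 0.268% to 0.350% of each library, and stayed out of the fits. Genes passing edgeR's filterByExpr were fitted with edgeR 4.0.16 in R 4.3.3: TMM scaling, 1 coefficient a condition, quasi-likelihood F-tests and Benjamini-Hochberg adjustment over 15797 genes. SE is the log2 fold change over the root of F. A gene with no more than 3 counts in both libraries of a condition is given as a bound at 3 counts a library. The procedure was checked on simulated counts for the comparison of cjPGCLCs with somatic cells + ActA. The simulation gave all genes and conditions the same dispersion, so it does not bear on the condition whose replicates stood apart. Alternatives were DESeq2 size factors, DESeq2 1.42.0, no filter, a replicate block, fits to the compared libraries alone, and each library left out. Depth, 4784964 to 22067099 counts, limits low genes. The SE covers counting error and the spread between replicates, the latter estimated over all conditions. The bounds at 3 counts a library include no such spread. Any member could be named. Library values were printed for members past both thresholds, though not in every comparison, and for the highest of each family except SEMA4C and PLXNA1. They were also printed for other members described in the text, which were picked after their values were seen. The members and lists were chosen with earlier results of these data known.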

Additional observations from a re-analysis of the deposited data

How the results depend on the processing

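No result changed direction under any alternative run. Of 311 gene and comparison pairs that passed the test, 301 kept the call under DESeq2 size factors, DESeq2, no filter and the replicate block; 57 lost it when only the compared libraries were fitted, and 136 lost it with some library left out, where a lone replicate is assumed to vary like the other conditions and fewer libraries set the spread. In the counts of guidance genes that rose or fell, fitting the compared libraries alone gave 9 for cjiPSCs in cjPSCM against TESR (24 in the fit to all libraries), 1 and 9 for pre-ME from cjPSCM with and without ActA (17 and 26), 29 for ActA in pre-ME from TESR (16), 14 for cjPGCLCs against somatic cells + ActA (8), 13 and 3 for the earlier ActA in cjPGCLCs and somatic cells (3 and 1), and 12 and 6 for the tests of ActA by medium and of fate by ActA (0 and 0); past both thresholds it gave 1 for the media (2) and 0 and 1 for pre-ME from cjPSCM (4 and 4). With no filter on low counts the counts were 16 for cjPGCLCs against somatic cells + ActA, 2 of them past both thresholds (1), 14 and 2 for the earlier ActA, and 10 and 5 for the 2 tests of a difference. DESeq2 gave 6 and 2 for the earlier ActA, and 4 and 4 for the tests of a difference. The share of all genes called in each of these alternative fits is not given here, and the cause of these shifts was not tested.

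With 1 library left out, the genes that rose or fell ranged from 18 to 23 in pre-ME + ActA from TESR, 7 to 25 in pre-ME + ActA from cjPSCM, 11 to 16 for ActA from cjPSCM, 3 to 5 and 5 to 8 between the fates with and without ActA, 0 to 3 and 0 to 1 for the earlier ActA in cjPGCLCs and somatic cells, and 0 to 1 and 0 to 3 for the tests of ActA by medium and of fate by ActA; for ActA from TESR each gave 10. The 1 gene in the test of ActA by medium appeared without cjPSCM pre-ME − ActA replicate 1, and the 3 in that of fate by ActA without cjPGCLC + ActA replicate 2. Those past both thresholds ranged from 1 to 10 between the media, 2 to 7 and 2 to 11 in pre-ME from cjPSCM with and without ActA, 1 to 3 and 1 to 2 for ActA from TESR and from cjPSCM, 1 to 2 and 1 to 3 between the fates, 8 to 15 in cjPGCLCs + ActA against pre-ME, and 4 to 7 in somatic cells + ActA against pre-ME. Leaving out each cjiPSC library in cjPSCM for the partner genes was chosen after seeing the data.

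The labels link same-numbered libraries by number alone, and do not say whether they share a culture or a sort. The correlation of their deviations from the group means lay between −0.193 and 0.234 over the 15 comparisons. Correlations of this size cannot decide whether such libraries are paired, and the main fit takes them as unpaired. The replicate block called 2 genes in the test of fate by ActA, where the fit without it called 0, and moved no other count by over 1.5 times. A block with crossed numbers, chosen after seeing the data for 3 comparisons with a correlation under −0.1, called 16, 27 and 31 genes, against 17, 26 and 31.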
